A study of Sus scrofa with 36 samples.

Results

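The genes described here encode the ubiquitin-proteasome machinery and the molecular chaperones of the pig heart after birth. Members were the protein-coding genes of the gene table whose symbols begin with PSM and a letter from A to G (proteasome subunits, their assembly factors and PSME3IP1, which binds a proteasome activator), UBE2 (ubiquitin-conjugating enzymes), USP and a number (ubiquitin-specific proteases), FBXO, FBXL or FBXW (F-box proteins), HSP or DNAJ (heat shock proteins and J-domain cochaperones), and that had at least 10 counts in at least 3 of 12 libraries. The rule leaves out 1 USP gene, which is not reported here. Of 79 genes with any other such symbol, 75 passed, among 5526 genes tested and 9815 in the table. There were 15 PSM, 9 UBE2, 15 USP, 13 FBXO, 3 FBXL, 8 HSP and 12 DNAJ genes and no FBXW gene. The 4 that did not pass were FBXO2, with 0 to 5 counts per library, PSMA8 and USP50, with 0 to 3 counts each, and DNAJB8, with no count in any library, where 3 counts would have been at most 0.354 CPM (counts scaled to library size with edgeR's TMM factors). HSPB7, listed in the table as a long noncoding RNA, and DNAJC25, UBE2E1, DNAJB11, FBXO17, FBXL8 and DNAJC4, which have no symbol in the table and were recognised by gene identifier, were not members, and none of them passed in any comparison.

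The study followed normally fed domestic Yorkshire pigs over the first month of life. Its authors place the capacity of the pig heart to regenerate in the first 2 days after birth. Heart tissue was collected on postnatal days 1, 3, 7 and 28 (P1, P3, P7 and P28), with 3 hearts at each age in the total RNA batch used here. Libraries are named by age and by the number in the column header, such as P3-5. The table holds genes of chromosomes 1, 2, 6 and 13, with 21, 7, 30 and 17 members respectively; members elsewhere in the genome were not analysed here.

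Ubiquitin is attached to proteins by a relay of an activating enzyme (E1), a conjugating enzyme (E2) and a ligase (E3). F-box proteins are the substrate adaptors of cullin-based ligases, USP enzymes remove ubiquitin again, and the proteasome, a barrel of proteolytic subunits capped by an ATP-driven regulatory particle, degrades the tagged proteins. Chaperones of the HSP families fold or hold client proteins, and J-domain proteins deliver clients to them. In the heart this machinery maintains the sarcomere, and in dividing cells it destroys cell cycle regulators on schedule.

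Library totals ran from 8887176 to 14883849 counts, of which the RNA genes named Metazoa_SRP together took 7.09% to 19.7% and the 75 members together 1.87% to 2.42%. The table gives no strand, and 23 members overlap another gene with at least 10% of their own mean CPM, so reads could be shared there. Library P3-5 stood apart from the other 11. It was the shallowest, and it held the lowest value of all 12 libraries for 33 members (44.0%, against 22.75% of all genes tested) and the highest for 12 (16.0%, against 22.19%). The median coefficient of variation of the members was 19.0% among the 3 P3 libraries and 7.82%, 7.08% and 8.52% at P1, P7 and P28. Counts of changed members are therefore given with and without P3-5. In bulk tissue, fewer cells of a type and less RNA per cell cannot be told apart, and the p-values measure the spread between these samples.

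Per kilobase of gene length, the members had a median of 26.8 RPKM (CPM divided by gene length in kilobases). Over all genes tested, noncoding genes included, the median was 10.6 RPKM. The highest levels were those of HSPA9, the mitochondrial HSP70 chaperone (mean 384 RPKM, range over 12 libraries 313 to 537), HSPA5, the HSP70 chaperone of the endoplasmic reticulum (mean 346 RPKM, range 205 to 514), and HSPG2 (mean 329 RPKM, range 227 to 725). These ranges overlapped, so the order of the 3 genes is not fixed by the data. HSPG2 encodes perlecan, a basement membrane proteoglycan, and is a member by its symbol and not a chaperone. FBXO40, an F-box protein of striated muscle, came next with a mean of 288 RPKM (range 222 to 400). It was followed by the proteasome core subunits PSMB1 and PSMB7, with means of 243 and 237 RPKM, the E2 enzyme UBE2M at 172 RPKM and the protease USP13 at 164 RPKM. At the other end stood UBE2U at 0.401 RPKM, DNAJC6 at 0.454 RPKM and FBXO15 at 1.22 RPKM, and FBXO5, a mitotic regulator, at 1.66 RPKM.

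**Figure D1:**
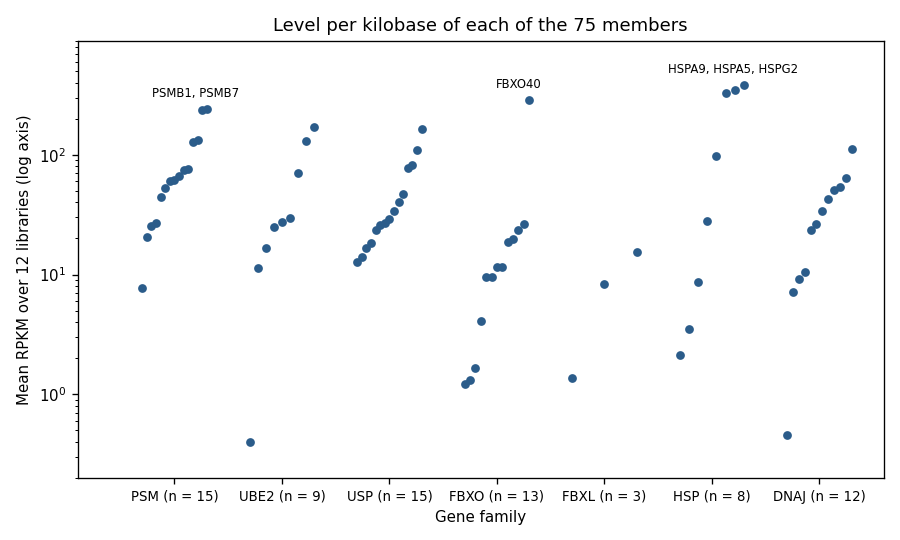
Mean level in RPKM over the 12 libraries on a log axis, with 1 point for each of the 75 members, ordered by level within its family. The labelled genes are those at or above 200 RPKM, led by HSPA9 at 384 RPKM, and UBE2U was lowest at 0.401 RPKM.

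Between P1 and P28, most proteasome genes had lower and the USP genes higher estimates, in small steps, and 2 of 15 genes passed in each family. Of 15 PSM genes, 14 had a log2 fold change below 0, with a family median of -0.31, and all 15 USP genes (14 with Metazoa_SRP left out of the library size) had one above 0, with a median of 0.15, while the median of all genes tested was 0.00. The UBE2 genes had 7 of 9 below 0 (median -0.22), and the FBXO, HSP and DNAJ genes lay on both sides, with medians of 0.00, -0.08 and -0.05. By edgeR's quasi-likelihood test with Benjamini-Hochberg adjustment over all genes tested, at an adjusted p under 0.05, 8 members (10.7%) changed, 3 higher and 5 lower at P28. Over all genes the share was 15.3%, with 7.38% higher and 7.93% lower, and the members' share was not above it in either direction.

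**Figure D2:**
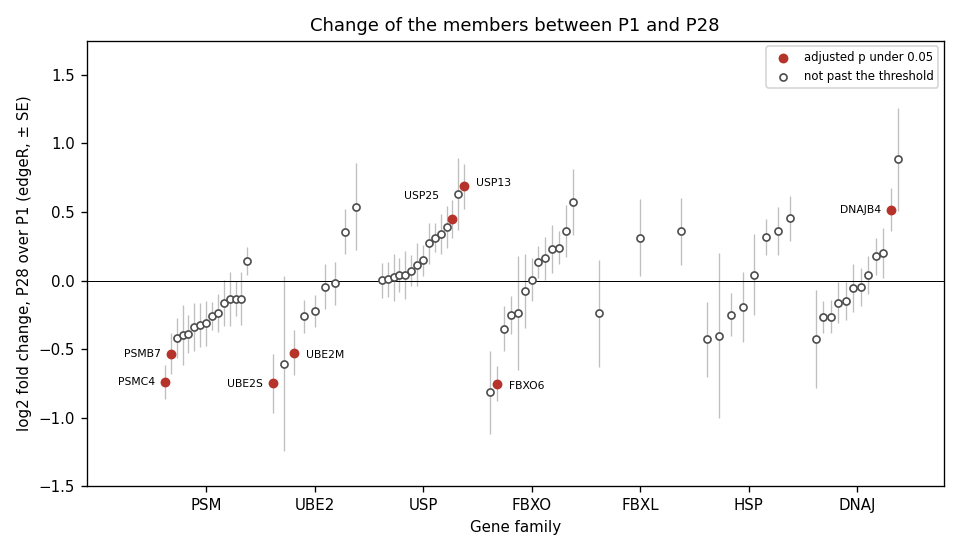
Log2 fold change of each member from P1 to P28 (edgeR, P28 over P1) with its standard error, by family, with 3 libraries per age. Filled points are the 8 members with an adjusted p under 0.05. Of 15 PSM points 14 lie below 0, and the 15 USP points lie above it (14 with Metazoa_SRP left out of the library size).

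The other comparisons share these libraries. From P1 to P3 no member passed (0 of 75, against 0.0543% of all genes), 10 had an unadjusted p under 0.05 (13.3%, against 15.2% of all genes), and DESeq2 also called 0 (against 2.21% of all genes in that test). The smallest edgeR adjusted p was 0.22, for FBXL2, which overlaps UBP1, a gene with 2700% of its mean CPM. From P1 to P7, 1 member changed, which was higher (background 2.01%, and 1.47% higher), and from P7 to P28, 10 members did, 6 higher and 4 lower (13.3%, against 18.8% of all genes, with 8.34% higher and 10.5% lower). In all, 13 members changed in at least 1 of the 4 comparisons, a count for which no share of all genes was taken. An F test over the 4 ages called 10 members (background 21.4%), of which 9 were among these 13. The tenth was USP20 (edgeR adjusted p 0.0496), which had 39.2 to 43.2 CPM at P1, 47.3 to 110 at P3 and 50.6 to 75.2 at P28. Its highest library was P3-5, and USP20 overlaps FNBP1, a gene of similar CPM.

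Without P3-5, 23 members changed between P1 and P28 (10 higher and 13 lower, against 25.6% of all genes, with 12.6% higher and 12.9% lower), 21 between P7 and P28 (28.3%), 2 between P1 and P7 (5.95%), 0 between P1 and P3 (0.127%), and 22 over the 4 ages (30.9%). The common dispersion of the fit was 0.0446 with that library and 0.033 without it. All 8 and all 10 members called with P3-5 were called without it. Leaving out other libraries moved the 8 calls between P1 and P28 to 2 without P1-5, P1-6 or P28-4 (against 9.54%, 8.4% and 9.41% of all genes in the same fits), to 4 without P28-6 (8.79%) and to 5 without P28-5 (10%) or any 1 P7 library (12.6% to 13%). The 10 calls between P7 and P28 moved to 4 without P7-5 (10.4%), 5 without P7-6 (12.9%) and 6 without P7-4 or P28-4 (11.7% and 13.3%), and the 10 calls over the 4 ages to 17 without P3-4 (29.7%) and 5 without P28-4 (14.3%). When a member was instead called by a raw p of at most 0.05 with a log2 fold change beyond 0.5 in size, 5 members passed from P1 to P3 (background 10.6%), 4 from P1 to P7 (11.7%), 11 from P1 to P28 (23.1%) and 10 from P7 to P28 (25.1%).

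The summed level of the proteasome genes was 3175 to 3288 CPM in the 3 P1 libraries, 2440 to 3382 CPM at P3, 2787 to 3042 CPM at P7 and 2645 to 2813 CPM at P28. Every P1 sum was above every P7 and P28 sum, and the P3 libraries spanned all of them. In 11 of the 15 genes all 3 P28 libraries lay below all 3 P1 libraries, and in none above (background 21.9% lower and 22.5% higher). These 11 included core subunits (PSMA3, PSMB1, PSMB2, PSMB7 and the immunoproteasome subunit PSMB10), ATPases and other parts of the regulatory particle (PSMC4, PSMC6, PSMD2, PSMD6, PSMD8) and the assembly chaperone PSMG2. PSMD6 overlaps ATXN7, whose mean CPM was 105% of that of PSMD6, and PSMB10 overlaps PSKH1, at 176% of that of PSMB10. The count of 14 of 15 below 0 was the same under each scaling, with DESeq2 and with any 1 library left out.

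PSMC4, an ATPase of the regulatory particle (chr6:48406376-48416216, Sscrofa11.1), had 238, 240 and 244 CPM at P1, 194, 183 and 234 CPM at P3, 195, 173 and 217 CPM at P7 and 147, 152 and 133 CPM at P28. Its 3 P28 libraries were the lowest of all 12, and the P1 libraries the highest. It fell by 0.74 ± 0.13 (SE) on the log2 scale from P1 to P28, a 1.67-fold difference (edgeR adjusted p 0.0025), and by 0.44 ± 0.13 from P7 to P28 (edgeR adjusted p 0.0293). The first call held with any 1 library left out, and the second was lost without P7-4, P7-6, P28-4, P28-5 or P28-6, at an adjusted p of up to 0.123.

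PSMB7, a proteolytic core subunit (chr1:265172247-265235400), had 287, 293 and 298 CPM at P1, 233, 196 and 307 CPM at P3, 248, 228 and 250 CPM at P7 and 202, 221 and 184 CPM at P28. All P28 libraries were below all P1 and P7 libraries. It fell by 0.53 ± 0.15 on the log2 scale from P1 to P28 (edgeR adjusted p 0.0308), a call lost without P1-4, P1-5, P1-6, P28-4 or P28-6, at an adjusted p of up to 0.117. It overlaps NEK6, whose mean CPM was 14.2% of that of PSMB7. The other 9 of the 11 PSM genes with separate P1 and P28 libraries did not pass by edgeR with all libraries. The DESeq2 test called 3 PSM genes lower from P1 to P28, and 19.7% of all genes in either direction. Without P3-5, 7 PSM genes passed, all lower at P28, in a fit that called 12.9% of all genes lower. The added ones were PSMB2, PSMD2, PSMD6, PSMD8 and PSMG2, with log2 fold changes of -0.26 to -0.42.

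PSMC3, another ATPase of the same ring and the PSM gene of highest CPM, had the other sign. It had 614, 521 and 566 CPM at P1 and 647, 623 and 609 CPM at P28, and its log2 fold change was 0.14 ± 0.10 (edgeR adjusted p 0.363). From P7 to P28 edgeR called it without P3-5 (log2 fold change 0.24, edgeR adjusted p 0.0469) and not with that library (0.116). The DESeq2 test on all libraries called 1 PSM gene higher from P7 to P28, and 23.5% of all genes in either direction. PSMC3 overlaps CELF1, whose mean CPM was 72.3% of its own. From P1 to P3 and from P1 to P7, 14 and 13 of the 15 PSM genes were also below 0, with medians of -0.22 and -0.15 and no gene passing. The P3 values rested on P3-5, since without it 10 of 15 were below 0 from P1 to P3 with a median of -0.04, and 13 of 15 from P1 to P7 with a median of -0.15. With it, 2 and 6 genes had separate lower libraries (background 7.62% and 15.2%).

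**Figure D3:**
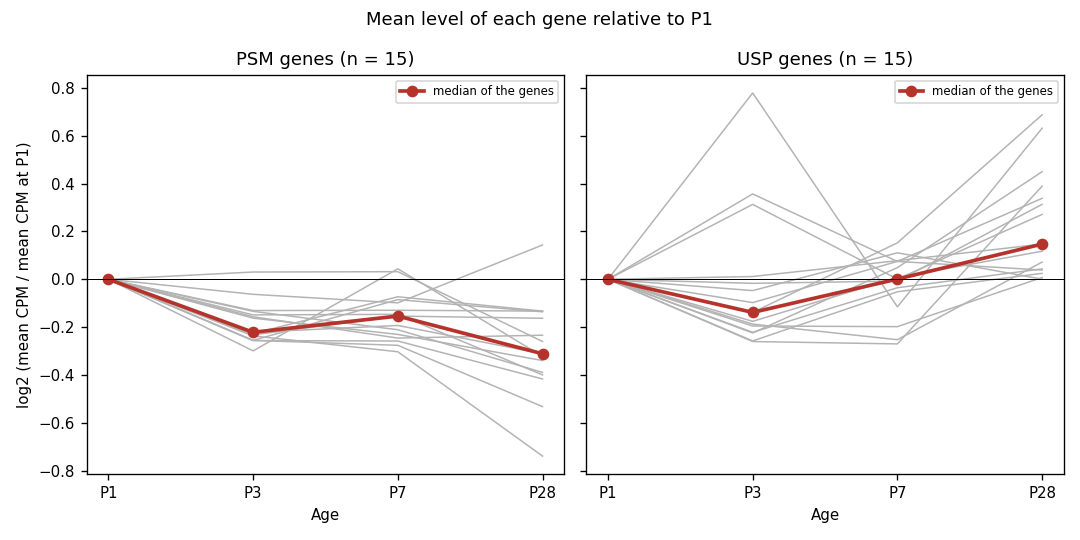
Log2 ratio of each gene's mean CPM at an age (3 libraries, no error drawn) to its mean at P1, for 15 PSM genes and 15 USP genes, with the median of the genes in red. The PSM median goes from 0 at P1 to -0.31 at P28, and the USP median from -0.14 at P3 to 0.15 at P28. Without P3-5 the fitted medians from P1 to P3 were -0.04 for PSM and 0.005 for USP.

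The USP proteases, which take ubiquitin off proteins, had the opposite direction at P28. Their summed level was 4718 to 5324 CPM at P1, 4395 to 4866 CPM at P3, 4759 to 4857 CPM at P7 and 5791 to 6647 CPM at P28. All 3 P28 sums were above those of the other 9 libraries. Genes of high CPM weigh most in these sums, led by USP13 with a mean of 1248 CPM over the 12 libraries. The median log2 fold change of the family from P1 to P28 was 0.15. In 8 of 15 genes, USP3, USP4, USP10, USP13, USP19, USP20, USP25 and USP45, every P28 library lay above every P1 library, and in none below (background 22.5% and 21.9%). From P7 to P28 the counts were again 8 and 0 (background 23.7% and 23.3%), with a median log2 fold change of 0.26. Without P3-5, 6 USP genes passed between P1 and P28, all higher at P28, in a fit that called 12.6% of all genes higher. The added ones were USP4, USP19, USP20 and USP45, with log2 fold changes of 0.27 to 0.63. USP19 overlaps LAMB2, whose mean CPM was 639% of its own. The direction of the smallest changes was not fixed, since 14 of 15 genes were above 0 when Metazoa_SRP was left out of the library size, 11 of 15 without P28-4 and 13 to 15 of 15 without any other single library.

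USP13 (chr13:117700119-117826946), the USP gene of highest CPM, had 1344, 987 and 904 CPM at P1, 938, 1008 and 993 CPM at P3, 1229, 1225 and 1142 CPM at P7 and 2120, 1573 and 1520 CPM at P28. The 3 P28 libraries were the highest of the 12. It rose by 0.69 ± 0.16 on the log2 scale from P1 to P28, or 1.61-fold (edgeR adjusted p 0.0148), and by 0.54 ± 0.16 from P7 to P28 (edgeR adjusted p 0.0375). The call from P1 was lost without P1-5, P1-6 or P28-4 (adjusted p of up to 0.0728), and the call from P7 without P7-4, P7-5, P7-6, P28-4 or P28-5 (up to 0.152).

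USP25 (chr13:180570969-180714075), a deubiquitinase with a muscle isoform, had 478, 410 and 382 CPM at P1, 389, 306 and 392 CPM at P3, 454, 440 and 420 CPM at P7 and 662, 544 and 530 CPM at P28. Its 3 P28 libraries were likewise above the other 9. It rose by 0.45 ± 0.14 on the log2 scale from P1 to P28 (edgeR adjusted p 0.0435), and that call was lost without any 1 of 8 libraries, all those of P7 and P28 and P1-5 and P1-6, at an adjusted p of up to 0.169.

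USP45 (chr1:66387603-66454741), which acts in DNA repair, and USP4 (chr13:31840300-31904348), which has roles in splicing and signalling, passed by edgeR between P7 and P28. Between P1 and P28 edgeR called them without P3-5 (edgeR adjusted p 0.00694 and 0.019) and not with all libraries. Without P3-4, and with the DESeq2 test, 3 USP genes were called higher between P1 and P28 (17.4% and 19.7% of all genes in either direction). USP45 had 174, 155 and 159 CPM at P1, 163, 99.97 and 145 CPM at P3, 139, 126 and 140 CPM at P7 and 211, 213 and 216 CPM at P28. It rose by 0.66 ± 0.15 on the log2 scale from P7 (edgeR adjusted p 0.0107, and 0.0571 without P7-5), while from P1 its log2 fold change was 0.39 (edgeR adjusted p 0.103). USP4 had 183 to 189 CPM at P1, 171 to 204 CPM at P3, 176 to 191 CPM at P7 and 222 to 237 CPM at P28. It rose by 0.32 ± 0.10 on the log2 scale from P7 (edgeR adjusted p 0.0485), a call lost without any 1 of the 9 libraries of P1, P7 and P28, at an adjusted p of up to 0.163. It overlaps C3orf62, whose mean CPM was 98.2% of its own. In each of these 4 USP genes the 3 P28 libraries were the highest of the 12, which held for 8 members in all (10.7%, against 8.52% of all genes), the others being UBE2L6, FBXO30, DNAJB4 and DNAJC19.

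**Figure D4:**
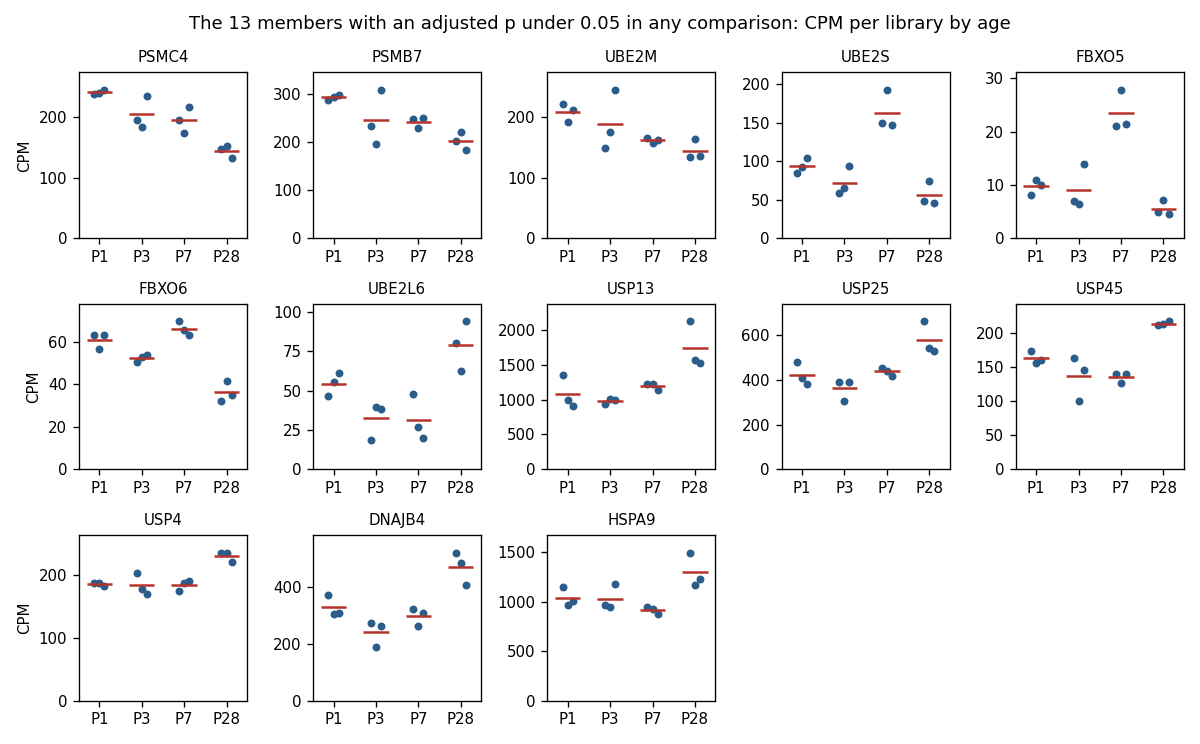
CPM in each of the 12 libraries by age (points, with 3 libraries per age, and the mean as a line) for the 13 members with an adjusted p under 0.05 in at least 1 comparison. USP13, USP25, USP45, USP4, DNAJB4 and UBE2L6 are highest at P28, PSMC4 and FBXO6 are lowest there, and UBE2S and FBXO5 are highest at P7.

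Among the E2 enzymes, UBE2M, which loads the ubiquitin-like protein NEDD8 onto cullins (chr6:63105532-63108747), had 222, 193 and 212 CPM at P1, 149, 175 and 245 CPM at P3, 166, 157 and 163 CPM at P7 and 134, 164 and 137 CPM at P28. The P1 and P28 libraries did not overlap. It fell by 0.53 ± 0.16 on the log2 scale from P1 to P28 (edgeR adjusted p 0.0475), a call lost without any 1 of the 9 libraries of P1, P7 and P28, at an adjusted p of up to 0.146, and with the replicate number as a block (adjusted p 0.0597). UBE2D2, a general E2 and the UBE2 gene of highest CPM, had 224 to 238 CPM at P1, 158 to 211 CPM at P3, 176 to 188 CPM at P7 and 189 to 205 CPM at P28. All its P1 libraries were above the other 9, and its log2 fold change to P28 was -0.22 ± 0.12 (edgeR adjusted p 0.223). From P1 to P7 edgeR called it without P3-5 (log2 fold change -0.34, edgeR adjusted p 0.031) and not with that library.

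UBE2S, the E2 that extends ubiquitin chains on substrates of the anaphase-promoting complex (chr6:59565030-59570490), was highest at P7. It had 85.1, 92.5 and 105 CPM at P1, 58.2, 64.6 and 93.7 CPM at P3, 149, 192 and 146 CPM at P7 and 48.5, 73.8 and 45.4 CPM at P28. The P7 libraries lay above all others, and the P28 libraries below those of P1. It fell by 1.54 ± 0.22 on the log2 scale from P7 to P28, a 2.91-fold difference (edgeR adjusted p 0.00089), which held with any 1 library left out. It also fell by 0.75 ± 0.22 from P1 to P28 (edgeR adjusted p 0.0356, lost without P1-5, P1-6, P28-4 or P28-6 at up to 0.134). From P1 to P7 its log2 fold change was 0.79 ± 0.22 (edgeR adjusted p 0.0711).

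FBXO5, also called EMI1, is an F-box protein that inhibits the same complex (chr1:13467501-13505936). It had 8.14, 10.9 and 10.1 CPM at P1, 7.02, 6.38 and 13.9 CPM at P3, 21.0, 27.8 and 21.4 CPM at P7 and 4.81, 7.16 and 4.53 CPM at P28. Its 3 P7 libraries were above all 9 others, as for UBE2S and FBXO6, which makes 3 members (4%, against 4.20% of all genes). FBXO5 was the only member that edgeR called between P1 and P7, where it rose by 1.27 ± 0.29 on the log2 scale, or 2.41-fold (edgeR adjusted p 0.0452). That call was lost without any 1 of the 9 libraries of P1, P7 and P28 (adjusted p of up to 0.177), and with the replicate number as a block. From P7 to P28 FBXO5 fell by 2.08 ± 0.30, a 4.24-fold difference (edgeR adjusted p 0.000991), which held with any 1 library left out.

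The 2 cycling-cell markers in the table were also highest in the 3 P7 libraries. BUB1B, a mitotic checkpoint kinase, had 34.3 to 50.5 CPM at P1, 26.3, 26.9 and 70.7 CPM at P3, 146, 185 and 153 CPM at P7 and 17.7, 36.4 and 15.4 CPM at P28. It rose by 1.84 ± 0.39 on the log2 scale from P1 to P7 (edgeR adjusted p 0.0353) and fell by 2.80 ± 0.40 from P7 to P28 (edgeR adjusted p 0.00093). CCNB2, cyclin B2, had 12.2 to 16.1 CPM at P1, 7.66 to 28.1 CPM at P3, 40.3 to 50.6 CPM at P7 and 4.04 to 12.2 CPM at P28, and fell by 2.56 ± 0.45 from P7 to P28 (edgeR adjusted p 0.00248), while from P1 to P7 its log2 fold change was 1.62 ± 0.43 (edgeR adjusted p 0.0674). The summed marker level was 46.5 to 66.6, 34.0 to 98.8, 190 to 235 and 19.4 to 48.6 CPM at the 4 ages in order. Neither marker was at 0 in any library, and within P3 the library P3-6 was the highest for both markers and for both FBXO5 and UBE2S. The part of cycling cells in the course of FBXO5 and UBE2S was not tested.

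UBE2L6, the E2 for the interferon-induced modifier ISG15 (chr2:13354013-13370801), had 46.4, 55.7 and 61.2 CPM at P1, 18.9, 39.6 and 38.6 CPM at P3, 47.6, 26.8 and 19.7 CPM at P7 and 80.3, 62.7 and 94.0 CPM at P28. Every P28 library was above the other 9, with P1 in between and P3 and P7 mostly below. It rose by 1.33 ± 0.32 on the log2 scale from P7 to P28, or 2.52-fold (edgeR adjusted p 0.0135), a call lost without P7-5, P7-6 or P28-6 at an adjusted p of up to 0.0665. From P1 to P28 its log2 fold change was 0.54 ± 0.32 (edgeR adjusted p 0.272).

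The E1 of the same relay and the modifier itself, both from the list of partner genes, had a similar order of ages. UBA7, the E1 for ISG15, had 44.7, 51.8 and 49.7 CPM at P1, 32.0, 75.7 and 38.1 CPM at P3, 49.8, 43.4 and 38.8 CPM at P7 and 96.3, 106 and 142 CPM at P28. It rose by 1.24 ± 0.27 on the log2 scale from P1 to P28 (edgeR adjusted p 0.00941) and by 1.39 ± 0.27 from P7 (edgeR adjusted p 0.00408). ISG15 had 50.01, 68.3 and 73.6 CPM at P1, 9.33, 27.1 and 29.9 CPM at P3, 37.0, 10.4 and 9.73 CPM at P7 and 122, 94.9 and 151 CPM at P28, and rose by 2.69 ± 0.51 from P7 to P28, or 6.47-fold (edgeR adjusted p 0.0035). From P1 to P28 its log2 fold change was 0.94 (edgeR adjusted p 0.201). All 3 genes of the relay had their 3 highest libraries at P28, and among the P7 libraries P7-4 was the highest in each. UBA7 overlaps TRAIP, whose mean CPM was 98.6% of its own.

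**Figure D5:**
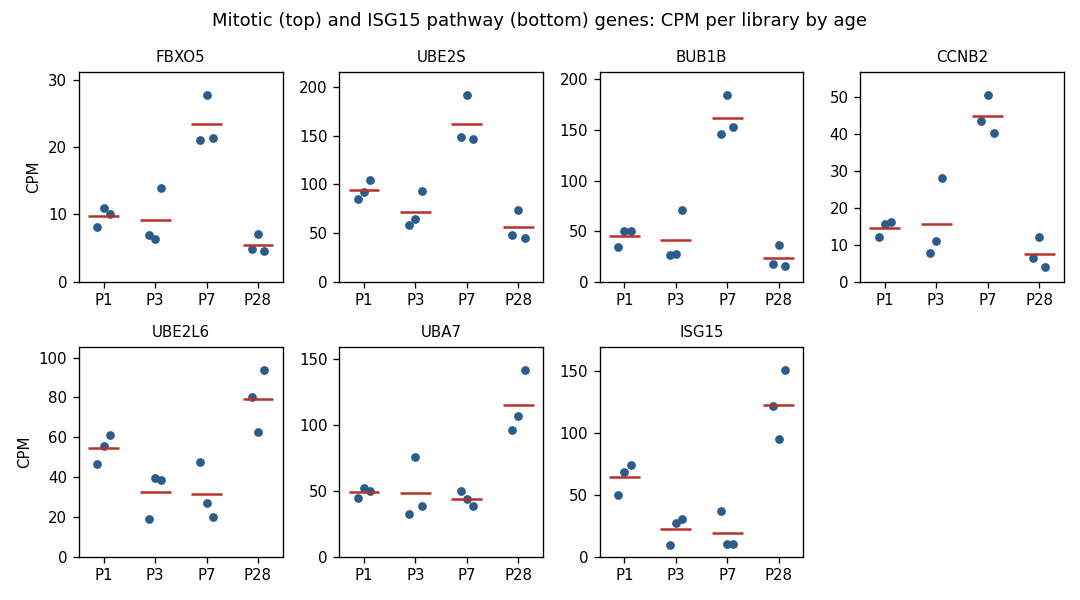
CPM in each library by age (points, 3 per age, with the mean as a line) for FBXO5, UBE2S and the cycling-cell markers BUB1B and CCNB2 in the top row, and for UBE2L6, UBA7 and ISG15 in the bottom row. The top genes are highest in the 3 P7 libraries, and the bottom genes are highest in the 3 P28 libraries.

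Of the other F-box genes, FBXO6, which recognises misfolded glycoproteins (chr6:71743261-71774223), changed at P28. It had 63.1, 56.8 and 63.1 CPM at P1, 50.7, 53.1 and 53.8 CPM at P3, 69.6, 65.5 and 63.3 CPM at P7 and 32.2, 41.7 and 34.9 CPM at P28. The P28 libraries were the lowest of the 12, as for PSMC4 and PSMD2 (3 members, 4%, against 7.98% of all genes). It fell by 0.75 ± 0.13 on the log2 scale from P1 (edgeR adjusted p 0.00251) and by 0.87 ± 0.13 from P7 (edgeR adjusted p 0.00105), and both calls held with any 1 library left out. It overlaps FBXO2, which had almost no counts, and MAD2L2, whose mean CPM was 42.6% of its own. FBXO40, the muscle F-box protein, had 1998, 1371 and 1342 CPM at P1, 1303, 1532 and 1612 CPM at P3, 1469, 1198 and 1343 CPM at P7 and 2163, 1743 and 1614 CPM at P28. All P28 libraries were above those of P3 and P7 but not above P1-4, and its log2 fold changes were 0.23 ± 0.17 from P1 to P28 (edgeR adjusted p 0.398) and 0.46 ± 0.17 from P7 (edgeR adjusted p 0.082). By edgeR with all 12 libraries, the remaining F-box genes, the FBXL genes included, did not pass in any comparison. The DESeq2 test called 2 FBXO genes higher and 3 lower from P7 to P28, and 23.5% of all genes. Without P3-5, FBXO31, FBXO45 and FBXO46 passed between P1 and P28 and FBXO30, FBXO34 and FBXO46 between P7 and P28, with edgeR adjusted p-values of 0.0115 to 0.0436. Of the 3 FBXL genes, FBXL4, a mitochondrial quality control protein, had 27.2 to 47.8 CPM at P1 and 33.3 to 62.4 CPM at P28.

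The HSP genes had no common direction, with 4 of 8 above 0 from P1 to P28. HSPA9 (chr2:140515246-140531845) had 1145, 970 and 1005 CPM at P1, 961, 946 and 1175 CPM at P3, 944, 929 and 871 CPM at P7 and 1495, 1172 and 1224 CPM at P28. Its P7 libraries were the lowest of the 12, the only member of which this was true (1.33%, against 2.42% of all genes). It rose by 0.50 ± 0.13 on the log2 scale from P7 to P28 (edgeR adjusted p 0.0201), a call lost without P7-4, P7-5, P7-6 or P28-4 at an adjusted p of up to 0.0825, and from P1 its log2 fold change was 0.32 (edgeR adjusted p 0.123).

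Some members with an HSP symbol are not chaperones themselves, among them HSPG2, HSPB11, a protein of intraflagellar transport, and HSPBAP1, which binds a small heat shock protein. HSPB11 had 13.7, 16.3 and 14.3 CPM at P1 and 21.3, 19.9 and 19.5 CPM at P28, which did not overlap, with a log2 fold change of 0.45 ± 0.17 (edgeR adjusted p 0.0838, and 0.0338 without P3-5). HSPB11 overlaps YIPF1, whose mean CPM was 221% of its own. HSPA13, an HSP70-like protein, likewise passed by edgeR without P3-5 (log2 fold change -0.43, edgeR adjusted p 0.0245) and not with that library. HSPG2 had 4035, 4238 and 3741 CPM at P1, 4289, 11166 and 5473 CPM at P3, 4455, 6817 and 4239 CPM at P7 and 3487, 4322 and 4559 CPM at P28. Its highest library was P3-5, in which PDGFRB, the 1 marker of smooth muscle and pericytes in the table, was also highest at 596 CPM, against 122 to 318 CPM in the other 11 libraries. In the same library HSPA5 was lowest, at 523 CPM against 720 to 1312 CPM elsewhere, and HSPB6, a small heat shock protein of muscle, was highest, at 312 CPM against 45.7 to 241 CPM. None of these 3 genes passed in any comparison.

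Among the J-domain proteins, DNAJB4 (chr6:135243934-135281370), a cochaperone of cytosolic HSP70 and the DNAJ gene of highest CPM, had 373, 306 and 311 CPM at P1, 273, 189 and 262 CPM at P3, 325, 262 and 310 CPM at P7 and 523, 486 and 409 CPM at P28. Its 3 P28 libraries were above the other 9. It rose by 0.52 ± 0.16 on the log2 scale from P1 to P28 (edgeR adjusted p 0.0453) and by 0.66 ± 0.16 from P7 (edgeR adjusted p 0.0134). The call from P7 was lost without P7-5 (adjusted p 0.0741), and the call from P1 without any 1 of 8 libraries, all those of P7 and P28 and P1-5 and P1-6, at up to 0.149. Without P3-5, DNAJC18 passed between P1 and P28 (edgeR adjusted p 0.0432), and DNAJC19 and DNAJC28 between P7 and P28 (0.00752 and 0.0376). With all libraries the other 11 DNAJ genes did not pass by edgeR in any comparison, with log2 fold changes from P1 to P28 of -0.43 for DNAJC6 to 0.88 for DNAJB5 (edgeR adjusted p 0.445 and 0.134). The DESeq2 test called 2 DNAJ genes higher from P7 to P28, and 23.5% of all genes. DNAJB5 overlaps VCP, whose mean CPM was 536% of its own.

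The lists of partner genes place the members in their pathways. Of 6 genes for ubiquitin-like modifiers and E1 enzymes, UBA7 was higher and SAE1, a subunit of the SUMO E1, lower at P28 than at P1, and ISG15 joined UBA7 from P7. SAE1 had 142 to 166 CPM at P1, 162 to 200 CPM at P7 and 104 to 126 CPM at P28, and fell by 0.46 ± 0.12 on the log2 scale from P1 (edgeR adjusted p 0.0237) and by 0.66 ± 0.12 from P7 (edgeR adjusted p 0.00303). Of 10 heart and muscle E3 ligases and adaptors, NEDD4L, a ligase for membrane channels, rose by 0.52 ± 0.14 from P1 (edgeR adjusted p 0.0237) and by 0.60 ± 0.14 from P7 (edgeR adjusted p 0.00961). None of the other 9 passed in any comparison of 2 ages, among them TRIM63, the sarcomere ligase MuRF1, with 949 to 1144 CPM at P1 and 1006 to 1180 CPM at P28. RNF207, also of this list, passed the F test over the 4 ages (edgeR adjusted p 0.0116), with 495 to 638 CPM at P1 and 770 to 1213 CPM at P3. None of the 8 helpers and regulators of the proteasome passed between 2 ages either, with a median log2 fold change of 0.09 from P1 to P28, where the PSM median was -0.31. NGLY1 of this list passed the F test over the 4 ages (edgeR adjusted p 0.0466).

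Of 8 chaperonins, prefoldins and cochaperones, HSF4, a heat shock transcription factor, had 12.2, 5.62 and 8.24 CPM at P1, 5.30, 4.79 and 7.11 CPM at P7 and 16.0, 15.9 and 22.9 CPM at P28. It rose by 1.07 ± 0.28 on the log2 scale from P1 (edgeR adjusted p 0.0241) and by 1.67 ± 0.29 from P7 (edgeR adjusted p 0.00238). GRPEL2, the nucleotide exchange factor that works with HSPA9, had 178 to 201 CPM at P1, 127 to 160 CPM at P3, 107 to 119 CPM at P7 and 170 to 195 CPM at P28. It fell by 0.70 ± 0.12 from P1 to P7 (edgeR adjusted p 0.0151) and rose by 0.65 ± 0.12 from P7 to P28 (edgeR adjusted p 0.00344), so that, like HSPA9, it was lowest in the 3 P7 libraries.

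Of the endoplasmic reticulum genes, HERPUD1 and SYVN1, both of the degradation pathway for misfolded proteins, rose from P7 to P28. HERPUD1 had 120 to 138 CPM at P7 and 205 to 234 CPM at P28, a log2 fold change of 0.78 ± 0.17 (edgeR adjusted p 0.00868). SYVN1 stands in the table under 2 overlapping gene identifiers that share reads, with log2 fold changes of 0.47 each, so the 3 calls among 8 entries are 2 genes. COPS2, of the complex that takes NEDD8 off cullins, rose by 0.51 ± 0.13 from P7 to P28 as 1 of 3 cullin partners (edgeR adjusted p 0.0154). RNF7, another cullin partner, passed only the F test over all ages (edgeR adjusted p 0.034). BAP1 rose by 0.38 ± 0.12 from P1 to P28 as 1 of 6 deubiquitinases outside the USP family (edgeR adjusted p 0.0427). CYLD, also of that list, passed only the F test over all ages (edgeR adjusted p 0.0366). From P1 to P3 no partner gene passed, and from P1 to P7 GRPEL2 alone did.

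Cardiomyocyte markers were abundant in every library. The 7 cardiomyocyte genes summed to 80843 to 92201 CPM at P1, 76911 to 88943 CPM at P3, 69256 to 77543 CPM at P7 and 78351 to 91841 CPM at P28, and none was at 0. Between P1 and P28, MYBPC3 rose by 0.57 ± 0.14 and ACTC1 fell by 0.60 ± 0.17 on the log2 scale (edgeR adjusted p 0.0158 and 0.034). TCF21, the 1 fibroblast marker, had 38.2 to 44.2 CPM at P1 and 18.1 to 22.4 CPM at P28, and fell by 1.05 ± 0.14 on the log2 scale (edgeR adjusted p 0.000678). The 2 leukocyte markers, CD14 and CSF1R, summed to 102 to 144 CPM at P1, 95.6 to 173 CPM at P3, 129 to 136 CPM at P7 and 174 to 242 CPM at P28. The 3 endothelial markers summed to 560 to 631 CPM at P1 and 576 to 629 CPM at P28, with unequal members. TEK had 204 to 229 CPM at P1 and 270.4 to 352 CPM at P28, and rose (log2 fold change 0.53 ± 0.15, edgeR adjusted p 0.0356), and TIE1 and CDH5 had log2 fold changes of -0.32 and -0.35 (edgeR adjusted p 0.283 and 0.392). From P7 to P28, TNNI3, MYBPC3 and TNNC1 rose by 0.71, 0.69 and 0.54 on the log2 scale (edgeR adjusted p 0.00403, 0.00425 and 0.0338). TCF21 and TIE1 fell by 0.74 and 0.71 (edgeR adjusted p 0.00395 and 0.0236). No erythroid marker was in the table. The part of these cell types in the changes of the members was not tested.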

How the data were processed

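The authors extracted total RNA from pig hearts and deposited raw gene counts, without normalization, for 12 libraries (3 per age) made with a ribosomal RNA depletion kit. The submitters' processing notes name STAR 2.7.9a, MultiQC 1.11 and Sscrofa10.2, but the table's gene positions match RefSeq's Sscrofa11.1; the counting tool and its strand setting are not given in the sources used here. Columns were assigned to ages by name, since their numbers 4 to 6 differ from the sample titles. A last, incomplete line of the table was left out. The circular RNA and miRNA tables were not used here.

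Counts were fitted in R 4.3.3 with edgeR 4.0.16 (TMM, quasi-likelihood test), with the 4 ages in a single model and Benjamini-Hochberg adjustment over 5526 genes with at least 10 counts in at least 3 libraries. Standard errors are the absolute log2 fold change divided by the square root of F. DESeq2 1.42.0 and the other settings were alternatives. On simulated data with 200 of 5526 genes changed by 1.5 on the log2 scale between P1 and P28, 82.5% were called. Of the unchanged genes, 3 were called. Members called in that comparison changed by 0.75 or less, so the 82.5% does not apply to changes of their size. RPKM used the table's gene lengths. Libraries P1-4 to P28-6 held 8887176 to 14883849 counts.

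The members and lists were chosen with earlier results of these data known. Genes named in each family are up to 3 with the largest change per direction between P1 and P28, up to 2 others that passed in each other comparison, the one of highest CPM and, where none passed, the one with the smallest p. Partner genes were named where they passed by edgeR with all libraries, between 2 ages or in the F test over all ages. PSMD2, HSPA5, HSPB6, HSPBAP1, USP20, FBXL2, DNAJB5, DNAJC6, TRIM63 and the genes listed only for level, for separate libraries or for a call without P3-5 were named after their values were seen.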

Additional observations from a re-analysis of the deposited data

How the results depend on the processing

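The counts of members called moved with the test, the fitted samples and single libraries. The DESeq2 test called 2 members from P1 to P7 (against 6.59% of all genes), 19 from P7 to P28 (against 23.5%) and 20 over the 4 ages (against 32.3%). With no filter on low counts, 2 passed from P1 to P7 (2.32% of all genes). With only the 2 ages compared in the fit, 4, 17 and 22 passed from P1 to P7, from P1 to P28 and from P7 to P28, against 6.24%, 21.2% and 30.4% of all genes. At the study's thresholds (raw p of at most 0.05, log2 fold change beyond 0.5 in size), 5 passed from P1 to P3 (10.6% of all genes) and 4 from P1 to P7 (11.7%). DESeq2 size factors, a library size without Metazoa_SRP and a filter of at least 50 counts in at least 6 libraries left every count within 1.5 times its value. Without 1 library at a time, the count was 0 from P1 to P3, 0 to 2 from P1 to P7, 2 to 23 from P1 to P28, 4 to 21 from P7 to P28 and 5 to 22 over the 4 ages. The share of all genes called in the same fits was 0.0181% to 0.29%, 0.38% to 5.95%, 8.4% to 25.6%, 10.4% to 28.3% and 13.1% to 30.9%. With the replicate number as a block, 0, 7, 12 and 10 members passed from P1 to P7, from P1 to P28, from P7 to P28 and over the 4 ages, against 1.74%, 14.2%, 18.3% and 20.1% of all genes. Same-numbered libraries correlated at 0.149 to 0.362 between P1 and P28 and at -0.226 to 0.255 between the other ages, and no source used here says what a number shares. Between P1 and P7 the block ended the call of FBXO5, and between P1 and P28 that of UBE2M and of no other named member. No log2 fold change of a called member reversed. With 3 libraries per age, the smallest log2 fold change called was 0.32, for USP4 from P7 to P28.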
